A study of Mus musculus with 6 samples.

Results

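The MAP kinase phosphatases and the Sprouty proteins are brakes of MAP kinase signalling, and 9 of their genes (Dusp1, Dusp3, Dusp4, Dusp5, Dusp6, Dusp8, Dusp14, Spry2 and Spry4) are described here in mouse hippocampus. They were taken by name, as every probe set that the platform annotation gives exactly 1 of these symbols, which found 17 of 45037 probe sets. The arrays compare 3 hippocampi of adult male mice homozygous for the daDREAM transgene of line L26 with 3 hippocampi of adult male wild type littermates, all unstimulated and on a C57B6xCBA background. DREAM, the product of Kcnip3, is a calcium-sensitive transcriptional repressor of neurons, and daDREAM is a dominant active form of it. L26 is a single transgenic line, and the promoter that drives its transgene is not given in the sources used here. A further transgenic line named in the labels, L1, was not analysed here. Each array is described in the series as an independent biological replicate.

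When a growth factor or a calcium signal activates a neuron, Ras and Raf pass it through MAP kinase kinases to the MAP kinases ERK, JNK and p38. Dual-specificity phosphatases (Dusp genes) remove the activating phosphates from these kinases, while Sprouty proteins act earlier, between receptor tyrosine kinases and Raf. Several of the brakes are themselves transcribed in response to the kinases they switch off, so that their RNA is often read as a trace of recent signalling, and Dusp1 belongs to the immediate early genes that neurons induce within minutes of activity.

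Values are log2 expression values from the authors' normalization, 1 per probe set and array, so that a difference of 1 is a 2-fold difference. Array medians were between 7.27 and 7.32, and arrays correlated at 0.9971 or higher within a group and at 0.9958 or lower between groups. The labelled tissue was checked on pyramidal and granule neuron markers, of which 8 of 10 were found under their symbols, the dimmest of them at a mean above every array median. Differences are L26 minus wild type with standard errors (SE) from a linear model over all probe sets (limma), and adjusted p-values use the Benjamini-Hochberg method over all 45037 of them with a threshold of 0.05. Over the whole array 1764 probe sets (3.92%) passed, 892 of them higher and 872 lower in L26. With each array centred on its median, 717 were higher and 1149 lower.

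Of the 17 member probe sets 1 passed, that of Dusp1, which was lower in L26, beside 3.92% of all probe sets called in either direction and 1.94% called lower. The other 16 did not pass, and their smallest adjusted p was 0.143. Their 95% intervals all lay between -0.53 and 0.41. The mean was lower in L26 for 9 of 11 Dusp probe sets, or 10 of 11 when arrays were quantile-normalized again or centred on their medians, and for 3 of 6 Spry probe sets. In the main fit 43.8% of all probe sets had a lower mean in L26. Centring moved the median difference of all probe sets by -0.03 and the repeated normalization by -0.01. The share of all probe sets with a lower mean was not computed under these scalings. The Dusp probe set that turned was Dusp3 1425608_at, at 0.0067 in the main fit. Dusp3 and Dusp8 each have several of the 11 probe sets. The median difference was -0.12 over the Dusp probe sets and 0.003 over the Spry probe sets, against 0.01 over the array. Unadjusted p-values under 0.05 were found for 6 of the 17 members and for 18.1% of all probe sets.

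**Figure D1:**
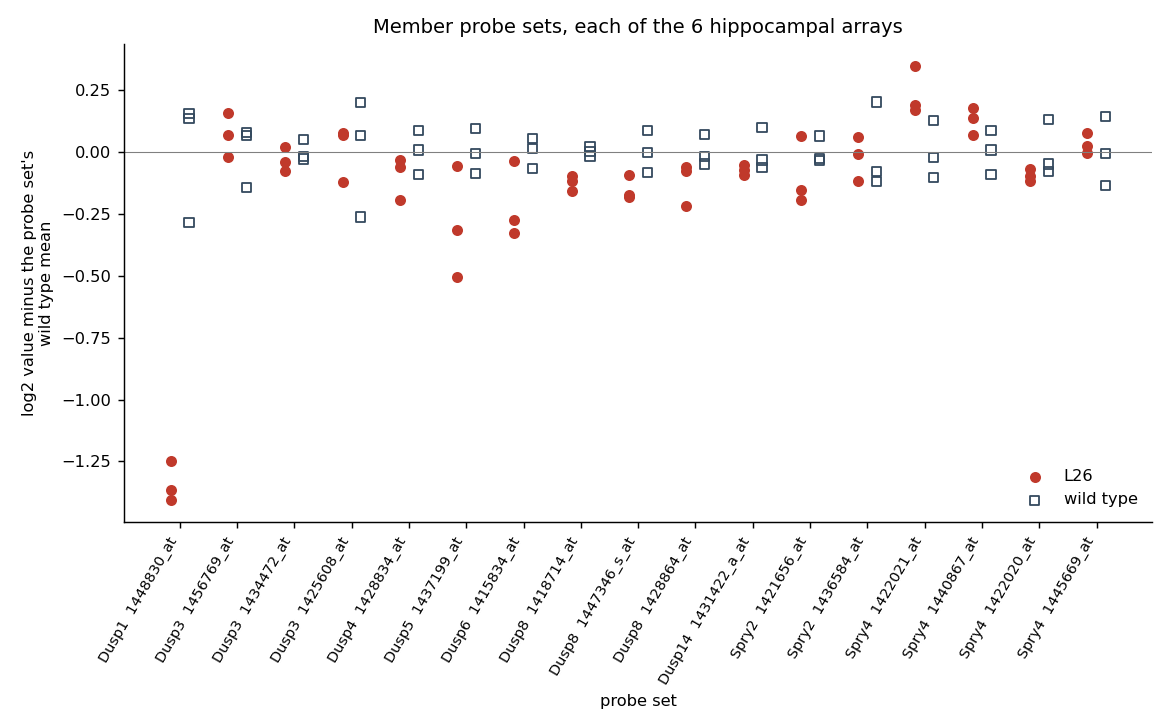
Log2 values of the 17 member probe sets in each array, as the distance from the probe set's own wild type mean (y axis), with 3 L26 arrays (filled circles, left) and 3 wild type arrays (open squares, right) for each. The 3 Dusp1 values of L26 lie more than 1 below the wild type mean, and no point of another probe set lies as far from its wild type mean.

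The nuclear phosphatase genes Dusp1, Dusp4 and Dusp5 had unequal differences. Dusp1 (MKP-1), which acts on p38, JNK and ERK, had log2 values of 9.73, 9.61 and 9.57 in the L26 arrays, against 10.69, 11.13 and 11.11 in the wild type arrays. The groups did not overlap, with a gap of 0.96 between the highest L26 and the lowest wild type value. Dusp1 averaged 9.64 ± 0.08 in L26 and 10.98 ± 0.25 in wild type (SD, n = 3 each). It fell by 1.34 on the log2 scale (SE 0.11, 95% interval -1.59 to -1.09, adjusted p = 0.000298), a level 2.53-fold lower than in wild type. In each fit without 1 of the 6 arrays the call remained, with differences from -1.48 to -1.26. The annotation gives Dusp1 a single probe set (1448830_at), so no further probe set of the gene checks this value.

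The same arrays also differed in markers of other cells, and in tissue RNA fewer cells of a type and less RNA per cell cannot be told apart. The mean log2 value of 11 oligodendrocyte markers, each by its brightest probe set, was 11.6 to 11.8 in L26 and 11.3 to 11.4 in wild type, and 7 of the 11 rose. For 11 vascular markers it was 9.16 to 9.28 in L26 and 8.77 to 8.82 in wild type, and 7 of the 11 rose. Counted by any probe set of a gene, 7 of the 11 rose in either list. Of all 18193 genes, 588 had a probe set called higher and 594 a probe set called lower. The myelin genes Mal, Mobp and Cnp rose by 0.66 (SE 0.09), 0.63 (SE 0.11) and 0.57 (SE 0.10), and the endothelial gene Cldn5 and the pericyte genes Rgs5 and Pdgfrb by 0.95 (SE 0.08), 0.73 (SE 0.07) and 0.68 (SE 0.08), each on the probe set of smallest p. Their other probe sets had 0.63 for Mal, 0.07 to 0.41 for Mobp, 0.41 and 0.46 for Cnp, 0.27 to 0.82 for Rgs5 and 0.12 for Pdgfrb. For 10 interneuron markers the mean was 10.85 to 10.88 in L26 and 10.93 to 10.96 in wild type. Of these, 1 gene, Reln, fell, by 0.37 on 1449465_at, with 0.04 on its other probe set. The mean of 8 pyramidal and granule neuron markers overlapped, with 11.28 to 11.31 in L26 and 11.19 to 11.32 in wild type, but 2 probe sets of Camk2a, the gene of a neuronal calmodulin kinase subunit, rose, by 0.90 (SE 0.06, adjusted p = 9.15e-05) on 1443876_at and by 0.33 (adjusted p = 0.0106) on another, with 0.02 to 0.16 on the remaining 4. For 10 astrocyte markers the mean was 11.336 to 11.368 in L26 and 11.286 to 11.334 in wild type, and 8 of the 10 had a higher mean in L26. Of 33 astrocyte probe sets 22 had a higher mean in L26, but 0 passed as higher and 2 fell. The larger fall was that of Gfap, an intermediate filament gene, by 1.60 (SE 0.06, adjusted p = 1.76e-06) on 1440142_s_at, whose other probe sets had -0.09 and 0.29, and S100b fell by 0.28 (SE 0.05). For 10 microglia markers the mean overlapped, with 9.509 to 9.557 in L26 and 9.394 to 9.513 in wild type. Of 16 microglia probe sets 4 rose and 1 fell, each of a different gene. The differences included 0.33 (SE 0.06) for Fcer1g, 0.29 (SE 0.06) for C1qb and -0.30 (SE 0.06) for P2ry12. The part of these cell types in the Dusp1 result was not tested.

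Dusp4 (MKP-2), an inducible phosphatase of ERK and JNK, had 7.94, 7.97 and 7.81 in L26, against 7.91, 8.01 and 8.09 in wild type. The groups overlapped, and the difference of -0.10 (SE 0.07, adjusted p = 0.522) did not pass. Dusp5, an inducible phosphatase specific for ERK, had 8.97, 8.71 and 8.52 in L26, against 8.94, 9.02 and 9.12 in wild type. L26 replicate 1 lay above the lowest wild type array, and the other L26 arrays lay below all of them. The difference of -0.29 (SE 0.11, 95% interval -0.53 to -0.06) had an unadjusted p of 0.0209 and an adjusted p of 0.178. It passed only when L26 replicate 1 was left out, at -0.41 (adjusted p = 0.0425), and in none of the other alternatives tried.

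Dusp6 (MKP-3), the cytoplasmic phosphatase specific for ERK, is commonly read as an output of ERK activity. It had 10.27, 10.51 and 10.22 in L26, against 10.48, 10.60 and 10.56 in wild type. Here too 1 L26 array, replicate 2, lay within the wild type values. The difference of -0.21 (SE 0.08, 95% interval -0.40 to -0.03, adjusted p = 0.204) did not pass.

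Because their regulation is well studied, the 250 bases before the annotated start of Dusp1, which fell, and of its inducible relatives Dusp5 and Dusp6, which did not pass, are shown for comparison. Sequences are from RefSeq (GRCm38.p6), on the gene's own strand, 5′ to 3′. Capitals mark the cAMP response element TGACGTCA, the core GTCA of the element that DREAM binds (searched on both strands, as GTCA and TGAC), and CArG boxes, which bind the serum response factor.
Dusp1, chr17:26508473-26508722, minus strand: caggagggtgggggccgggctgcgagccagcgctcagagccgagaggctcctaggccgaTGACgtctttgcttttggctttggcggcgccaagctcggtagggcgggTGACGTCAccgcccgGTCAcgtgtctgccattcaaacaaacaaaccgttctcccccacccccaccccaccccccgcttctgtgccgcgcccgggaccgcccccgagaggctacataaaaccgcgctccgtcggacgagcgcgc
Dusp5, chr19:53528895-53529144, plus strand: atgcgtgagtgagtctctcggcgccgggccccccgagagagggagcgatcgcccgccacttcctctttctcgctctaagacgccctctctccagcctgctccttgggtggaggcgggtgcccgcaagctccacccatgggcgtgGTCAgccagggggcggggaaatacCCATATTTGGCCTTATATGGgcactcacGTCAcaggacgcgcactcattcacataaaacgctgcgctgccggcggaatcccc
Dusp6, chr10:99262981-99263230, plus strand: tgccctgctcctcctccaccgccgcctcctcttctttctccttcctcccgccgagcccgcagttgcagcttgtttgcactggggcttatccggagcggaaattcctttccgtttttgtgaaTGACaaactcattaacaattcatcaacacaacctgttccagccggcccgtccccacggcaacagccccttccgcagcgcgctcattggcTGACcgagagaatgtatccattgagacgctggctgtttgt

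The Dusp1 window holds 1 TGACGTCA, whose first base is 143 bases before the start, and 4 copies of GTCA, 2 of which lie within that TGACGTCA. The Dusp5 window holds 2 CArG boxes side by side, from 82 to 63 bases before the start, and 2 copies of GTCA. The Dusp6 window holds 2 copies of GTCA and neither of the other motifs. Of the 32851 mouse windows of this length in the table, 1.55% hold TGACGTCA, 1.47% a CArG box and 80.2% GTCA. TGACGTCA is also present in 2 copies before the listed start of Dusp8, whose difference did not pass, and in none of the windows of Dusp3, Dusp14 and Spry2. The windows of Dusp14 and Spry2 hold no GTCA and that of Dusp3 holds 3. For Dusp3, Dusp8 and Dusp14 the listed start lies inside the annotated gene, so their windows are not directly comparable with the others. A match of letters says nothing on whether a factor binds there in these animals.

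Dusp8, which prefers JNK and p38 over ERK, is measured by 3 probe sets, and on each of them all L26 arrays lay below all wild type arrays. Probe set 1418714_at had 9.14, 9.16 and 9.10 in L26, against 9.28, 9.24 and 9.26 in wild type. Probe set 1447346_s_at had 8.35, 8.27 and 8.26 in L26, against 8.44, 8.53 and 8.36 in wild type, and its name marks it as open to related transcripts. Probe set 1428864_at had 10.83, 10.67 and 10.81 in L26, against 10.87, 10.96 and 10.84 in wild type. The gaps between the groups were small, at 0.08 on the first and 0.01 on the others. Complete separation with L26 below was seen for 4 of the 17 member probe sets, Dusp1 and these 3, and for 9.32% of all probe sets. The differences of -0.13 (SE 0.05), -0.15 (SE 0.06) and -0.12 (SE 0.07) did not pass (adjusted p = 0.245, 0.25 and 0.38). The 3 probe sets measure 1 gene on the same arrays and are not independent.

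Dusp3 (VHR) and Dusp14 (MKP-6) are small atypical phosphatases that lack the kinase-binding domain of the others. The Dusp3 probe set 1434472_at had 10.71, 10.61 and 10.65 in L26, against 10.66, 10.74 and 10.67 in wild type. Its difference was -0.03 (SE 0.06, 95% interval -0.16 to 0.09), and the other Dusp3 probe sets had 0.07 (SE 0.08, 1456769_at) and 0.01 (SE 0.11, 1425608_at). On all 3 the groups overlapped. On 1425608_at the sign turned with the scaling, with -0.01 after a repeated quantile normalization and -0.02 with centred arrays. Dusp14 had 10.09, 10.13 and 10.11 in L26, against 10.12, 10.28 and 10.15 in wild type. The lowest wild type array lay inside the L26 range, and the difference of -0.07 (SE 0.06, 95% interval -0.21 to 0.06) did not pass.

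**Figure D2:**
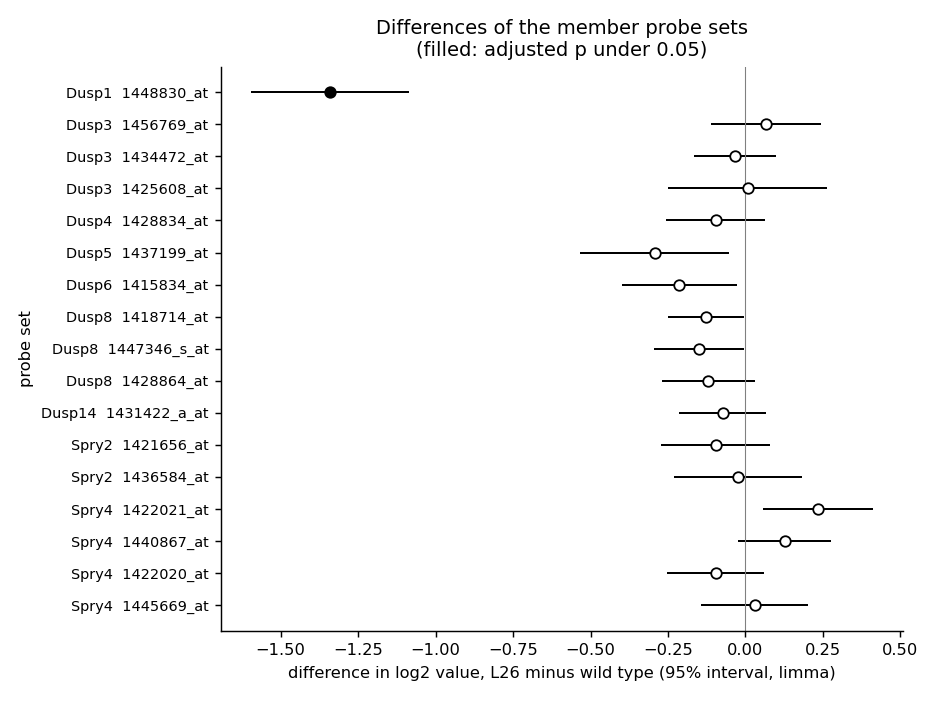
Differences in log2 value, L26 minus wild type (x axis), for the 17 member probe sets (y axis), with 95% intervals from limma as lines. The filled point, Dusp1 at -1.34, has an adjusted p under 0.05, and the intervals of the open points lie between -0.53 and 0.41.

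The Sprouty genes showed no shared direction. Spry2, an inhibitor of growth factor signalling to Ras, had 9.06, 9.24 and 9.17 in L26, against 9.06, 9.10 and 9.38 in wild type on 1436584_at. On 1421656_at it had 6.59, 6.85 and 6.63 in L26, against 6.85, 6.76 and 6.75 in wild type. The groups overlapped on both, with differences of -0.02 (SE 0.09, 95% interval -0.23 to 0.18) and -0.10 (SE 0.08, 95% interval -0.27 to 0.08).

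Spry4, a relative of Spry2 that likewise restrains receptor tyrosine kinase signalling, is measured by 4 probe sets that disagreed in sign. Probe set 1422021_at had 6.11, 6.27 and 6.09 in L26, against 5.90, 6.05 and 5.82 in wild type. All L26 values lay above all wild type values by a gap of 0.04, as they did on 12.5% of all probe sets, and the difference was 0.23 (SE 0.08, unadjusted p = 0.0141, adjusted p = 0.143). Probe set 1422020_at, which the annotation ties to the same source sequence, had 6.06, 6.03 and 6.01 in L26, against 6.05, 6.08 and 6.26 in wild type. Its groups overlapped, and the difference was -0.10 (SE 0.07, adjusted p = 0.508). Probe set 1440867_at had 7.74, 7.70 and 7.63 in L26, against 7.47, 7.57 and 7.65 in wild type, a difference of 0.13 (SE 0.06, adjusted p = 0.349). On 1445669_at the difference was 0.03 (SE 0.08). Removing the dimmest 40% of probe sets took out 3 of these 4 and left 1440867_at.

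Whether Dusp1 differed from the other brakes was tested on the difference between its log2 value and that of each other member in the same array, using the member's brightest probe set. This difference was lower in L26 than in wild type for all 8 members, by 1.05 against Dusp5 and 1.13 against Dusp6 at the least and by 1.47 against Spry4 at the most. Its SD within a group was at most 0.24. The exact permutation test (2-sided) gave p = 0.1 for each of the 8 pairs, and 0.1 after adjustment over them, which is the smallest p that 3 arrays against 3 allow. Dusp1 was the only member that passed on these same arrays, and all 8 pairs share its values. The separation was therefore largely set in advance, and the test gives no independent evidence that Dusp1 differed.

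The array profile of Dusp1 was set beside those of other genes. The profiles, each centred on its mean over the 6 arrays, were compared with those of 16328 other named genes by the root mean square difference on the log2 scale. Arc, an activity-induced gene of synaptic plasticity, was closest at 0.11, followed by the potassium channel gene Kcnj9 at 0.15 and Golt1b, a gene of vesicle transport, at 0.17. Arc had 9.28, 9.07 and 8.84 in L26, against 9.99, 10.60 and 10.64 in wild type. For Dusp1 and Arc alike, replicate 1 was the highest of the L26 arrays and replicate 1 was the lowest of the wild type arrays. The AP-1 gene Fos had the same order, with 9.14, 8.57 and 8.35 in L26, against 10.24, 11.05 and 10.98 in wild type. Dusp5 and Egr1 shared it too. Kcnj9 and Golt1b did not, nor did the immediate early genes Ier2 and Ier3. Both extremes, L26 replicate 1 highest and wild type replicate 1 lowest, were present together on 5 of the 17 member probe sets and on 12% of all probe sets. The 5 include Dusp1 itself, from which the order was taken. The others were Dusp5, Dusp3 1434472_at and Spry4 1440867_at and 1422020_at, none of which passed. The count is therefore no evidence of an order shared by the members. The group difference makes up most of each profile, so the measure mainly ranks genes by a fall of like size.

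**Figure D3:**
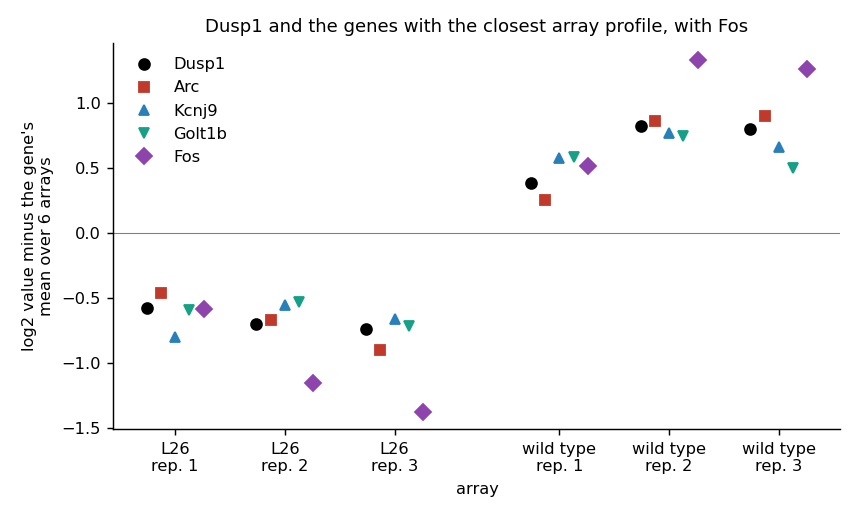
Log2 values of Dusp1, of its 3 closest genes Arc, Kcnj9 and Golt1b, and of Fos in each array (x axis, L26 left and wild type right), as the distance from the gene's mean over the 6 arrays (y axis). All 5 genes lie below 0 in the L26 arrays and above 0 in the wild type arrays, and L26 replicate 1 and wild type replicate 1 lie closest to 0 for Dusp1, Arc and Fos.

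Around the brakes, other genes of MAP kinase signalling were mostly without a call. Of 117 listed genes 104 were found under their symbols, with 261 probe sets, of which 8 passed lower and 6 passed higher in L26 (5.36%, beside 3.92% of all probe sets). The median difference was -0.003. The count depended on single arrays, with 5 (1.92%) without L26 replicate 2, 6 (2.3%) without L26 replicate 3 and 7 (2.68%) without wild type replicate 2. The share of all probe sets that passed fell in the same fits, to 2.15%, 1.8% and 2.36%.

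Among 16 further dual-specificity phosphatase genes with 32 probe sets 1 fell. This was Dusp26, an atypical phosphatase expressed in neural tissue, with a mean of 9.13 in L26 and 9.52 in wild type, a difference of -0.39 (SE 0.06, adjusted p = 0.00626). Dusp2, Dusp7, Dusp9, Dusp10 and Dusp16, the other classical MAP kinase phosphatases, did not pass, with differences from -0.14 (Dusp7) to 0.13 (Dusp16). Of 19 other brakes with 45 probe sets, Lrig1, an inhibitor of ErbB receptors, rose by 0.42 (SE 0.07, adjusted p = 0.00873) on 1434210_s_at. Another Lrig1 probe set had 0.41 (adjusted p = 0.0765) and the third had 0.05. The other Sprouty genes, Spry1 and Spry3, each had 0.02 (SE 0.06) and did not pass.

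Upstream of the kinases, 18 genes of Ras and Raf input with 57 probe sets gave 2 that rose and 0 that fell. Gab1, an adaptor of receptor tyrosine kinases, rose by 0.37 (SE 0.06, adjusted p = 0.0137), with 0.24 and 0.31 on its other probe sets. Rasgrf1, a calcium-dependent activator of Ras in neurons, rose by 0.37 (SE 0.06) on 1424734_at, but its other probe sets had -0.12 and -0.09. Of 15 MAP kinase kinase genes at both tiers, Map3k2 fell by 0.54 (SE 0.09) on 1438719_at, with -0.17 and -0.07 on the other probe sets. Map3k7 (TAK1) rose by 0.28 (SE 0.06), with others from -0.02 to 0.19.

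Of 11 MAP kinase genes only Mapk14 (p38 alpha) had a probe set that passed. It was 1442364_at, with -0.39 (SE 0.08, adjusted p = 0.0314), while its 5 other probe sets ranged from 0.003 to 0.14. Among 12 genes of MAP kinase substrates, Elk1, a transcription factor activated by ERK, rose by 0.40 (SE 0.08) and 0.28 (SE 0.06) on 2 of its probe sets and had 0.04 on the other. Stmn1, a regulator of microtubules, fell by 0.29 (SE 0.05, adjusted p = 0.0194), with -0.31 (adjusted p = 0.0561) on the other probe set.

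Of 13 further transcripts that depend on ERK in many cells, 4 fell and 0 rose. Of all 18193 genes, 594 had a probe set called lower. The 13 were measured by 24 probe sets, of which 4 passed lower, beside 1.94% of all probe sets. Of the 24, 14 had a higher mean in L26, and the median difference was 0.04. Fos fell by 2.07 (SE 0.24, adjusted p = 0.0016), Egr1, a zinc finger transcription factor, by 0.54 (SE 0.11), Ier2 by 0.45 (SE 0.08) and Ier3 by 0.38 (SE 0.08). The other 9 genes did not pass, among them Fosl2 with 0.16 and -0.12, Fosl1 with 0.08 and -0.01, Myc with 0.04, Phlda1 with -0.13 (SE 0.06) and Etv5 with 0.10 to 0.15. Etv4 had 0.22 and 0.10, Epha2 0.14, Epha4 -0.01 to 0.18 and Ccnd1 -0.21 to 0.04. The list was chosen with earlier results on Fos known.

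**Figure D4:**
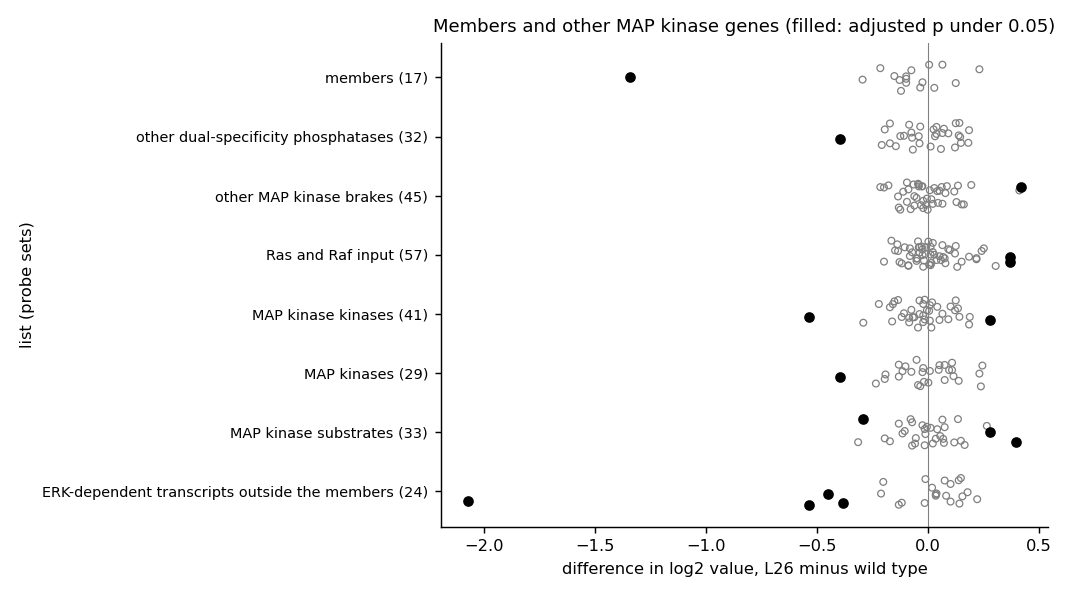
Differences in log2 value, L26 minus wild type (x axis), of each probe set of the members and of 7 lists of other MAP kinase genes (y axis, number of probe sets in brackets). Filled points have an adjusted p under 0.05. Dusp1 at -1.34 and Fos at -2.07 stand furthest to the left, and the remaining points lie between -0.54 and 0.42.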

How the data were processed

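RNA from 6 hippocampi was hybridised to Affymetrix Mouse Genome 430 2.0 arrays, 1 per sample. The authors deposited log2 expression values, made with RMA and the affy package per the submitters' processing notes (the sources used here give no versions) and rounded to 2 decimals. They carry no detection calls, and RMA tends to shrink the differences of dim probe sets. The precision is limited by the number of arrays.

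Of 45101 probe sets, 64 array controls were left out. The platform annotation gave 34945 of the rest 1 symbol, 932 several and 9160 none, and only the first were named. All 45037 were fitted in limma 3.58.1 (R 4.3.3, lmFit and eBayes, no covariates, 2-sided), which was tested on simulated data. The replicate numbers were not used as pairs in the main fit. Deviations of same-numbered arrays from their group means correlated at -0.038, -0.07 and 0.154, which cannot show whether the samples were paired. The series calls the arrays biological replicates. No batch is given in the sources used here.

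All member probe sets are named. Of each further list, genes past the threshold are named by smallest p (up to 6, or up to 3 for markers), and the other genes named were chosen after their values were seen. The 3 nearest profiles were named for members past the threshold, without predicted genes. Members and lists were chosen with earlier results of these data known. Motifs were searched in RefSeq promoter windows, which were used for 7 of the 9 genes. Dusp4 had no such window, and Spry4 was left out of the search. Alternatives were a replicate block, each array left out, a repeated quantile normalization, median centring, removal of the dimmest 40%, weights per array, a trended robust prior, leaving out probe sets with the endings _x_at and _s_at, 1 value per gene (the brightest probe set or the mean) and a threshold of 0.1.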

Additional observations from a re-analysis of the deposited data

How the results depend on the processing

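Dusp1 kept its direction and its call in all 16 settings in which its probe set was fitted, with differences from -1.48 to -1.26 and adjusted p-values from 9.42e-06 to 0.00343. The count of member probe sets past the threshold was 1 in every alternative except 1, and ranged from 1 to 2 when arrays were left out, the second being Dusp5 without L26 replicate 1. The replicate block gave 1 member (Dusp1, adjusted p = 0.0028), 11 pathway probe sets and 1330 in all, and changed no call of a member. The count over the array was 810 to 1430 when arrays were left out (810 without L26 replicate 3, 968 without L26 replicate 2, 1064 without wild type replicate 2), 945 with the brightest probe set of each gene, 964 with the mean of a gene's probe sets, both of which test fewer features, and 3167 at a threshold of 0.1. The pathway count was 5 to 12 when arrays were left out, 8 with the brightest probe set of each gene and 23 at a threshold of 0.1. Signs turned only among members that did not pass. Dusp3 1425608_at had -0.0142 after a repeated quantile normalization and -0.0233 with centred arrays, and -0.125 to 0.105 when arrays were left out. The cause was not tested. When arrays were left out, Dusp3 1456769_at ranged from -0.005 to 0.1117, Spry2 1436584_at from -0.0833 to 0.0767 and Spry4 1445669_at from -0.0383 to 0.1017.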
